A study of Mus musculus with 42 samples.

Results

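The genes Mylip, Lrp1, Scarb1, Stard4 and Vldlr, lipoprotein receptors and their regulators, were followed in the livers of APOE*3-Leiden mice. They were chosen by name, with earlier results of these data known, and are 5 of the 54446 genes counted. Liver RNA of 42 female mice was sequenced with 1 library per mouse, and the values are read pairs counted per gene. APOE*3-Leiden mice carry a human apolipoprotein E3 variant as a transgene, in all 3 groups alike, which slows the clearance of lipoprotein remnants and makes plasma lipids respond to diet. The Chow group (10 mice) stayed on a maintenance chow diet. The WTD group (16 mice) received a semi-synthetic Western-type diet with 1% cholesterol, 15% cocoa butter and 40.5% sucrose, and the WTD + atorvastatin group (16 mice) received the same diet with atorvastatin, a statin, which inhibits cholesterol synthesis. The mice of both WTD groups were 8 to 14 weeks old at the start and had a run-in of 3 weeks on the diet; for Chow mice an age was not given in the sources used here. Atorvastatin was given at 3.0 mg/kg/day and, from week 5, at 4.5 mg/kg/day. From week 22 the WTD of both groups also held 0.05% cholate, and all mice were killed at week 32. The Chow mice carry another prefix in their mouse names than the mice of both WTD groups, so that diet, cholate and any difference between these sets of mice cannot be told apart.

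Hepatocytes take up lipoproteins through several surface proteins. Lrp1 is a large endocytic receptor that binds apolipoprotein E on chylomicron remnants, Vldlr is a related receptor for triglyceride-rich particles that is scarce in healthy liver, and Scarb1 (SR-BI) takes cholesteryl esters selectively from high-density lipoprotein. Mylip (also called Idol) is a ubiquitin ligase that sends receptors of this family, Vldlr among them, to lysosomal degradation, and its gene is induced by LXR, the nuclear receptor for oxysterols. Stard4 is a soluble carrier that moves cholesterol between membranes, and its gene is induced by SREBP2, the transcription factor of cholesterol synthesis that is active when sterols are low.

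To show which regulatory letters lie next to the start sites, the 250 bases before the RefSeq start were read for the members with an entry (build GRCm38.p6). They are Mylip, chr13:45389492-45389741 on the plus strand, Lrp1, chr10:127621149-127621398 on the minus strand, and Vldlr, chr19:27216234-27216483 on the plus strand. Each is written 5′ to 3′ along the gene, and capitals mark matches to the motifs named after them.
Mylip: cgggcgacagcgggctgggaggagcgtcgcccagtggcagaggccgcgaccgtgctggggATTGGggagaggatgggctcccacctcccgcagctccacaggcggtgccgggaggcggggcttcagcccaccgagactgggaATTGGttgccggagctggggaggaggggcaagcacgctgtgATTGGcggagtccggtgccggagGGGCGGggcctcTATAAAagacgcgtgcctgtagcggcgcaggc
Lrp1: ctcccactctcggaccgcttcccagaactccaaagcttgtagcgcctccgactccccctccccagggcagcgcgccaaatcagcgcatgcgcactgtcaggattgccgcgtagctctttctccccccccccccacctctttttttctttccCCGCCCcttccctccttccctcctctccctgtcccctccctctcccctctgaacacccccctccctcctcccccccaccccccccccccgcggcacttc
Vldlr: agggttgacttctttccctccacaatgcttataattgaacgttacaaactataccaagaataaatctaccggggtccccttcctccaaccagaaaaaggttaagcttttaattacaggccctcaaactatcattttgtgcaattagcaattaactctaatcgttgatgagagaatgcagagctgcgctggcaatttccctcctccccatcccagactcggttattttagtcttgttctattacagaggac
The capitals in the Mylip window are 3 CCAAT boxes on the opposite strand, at 190, 108 and 67 bases before the start, a GC box (GGGCGG) at 44 and a TATA box (TATAAA) at 32 bases before it, and the GC box does not overlap the TATA box. The Lrp1 window holds 1 GC box on the opposite strand, at 99 bases, and the Vldlr window holds no match to the motifs searched. A second Vldlr window, before another RefSeq start at chr19:27216770-27217019, holds a CCAAT box at 78, a GC box at 42 and an ATF4 element (TGATGNAA) at 200 bases before that start, all on the opposite strand. None of these windows holds a match, on either strand, to the sterol regulatory element TCACNCCAC, to the nuclear receptor letters AGGTCA or their spaced repeats DR4 and DR1, or to the E-box CACGTG. Among 32851 windows of the same length, 33.8% hold a CCAAT box, 32.7% a GC box, 12.4% a TATA box, 3.45% the ATF4 element, 1.05% the sterol regulatory element, 14% AGGTCA, 0.0152% the DR4, 0.0335% the DR1 and 6.02% the E-box. The matches are descriptions of letters and not binding sites.

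All 5 members passed the filter on low counts. Mylip (ENSMUSG00000038175.10) lies at chr13:45389742-45412022 (GRCm38, plus strand), Lrp1 (ENSMUSG00000040249.15) at chr10:127538161-127621148 (minus), Scarb1 (ENSMUSG00000037936.15) at chr5:125277087-125341094 (minus), Stard4 (ENSMUSG00000024378.9) at chr18:33199355-33213862 (minus) and Vldlr (ENSMUSG00000024924.14) at chr19:27216484-27254231 (plus). All are protein-coding. The only annotated overlaps are Gm16217, antisense to Lrp1, with 33 counts in all mice, and Gm42633 within Scarb1 with 0 counts, and neither shares an exon with the member.

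Depth ranged from 15661381 to 36224054 gene counts per mouse (median 19421089.5), and some libraries missed many weak genes. Levels are given as CPM, counts scaled to library size. Among genes whose level in the group was 1 to 2 CPM, 0% to 59.7% had no count in a library, and this share was over 20% in 8 libraries (3 Chow, 4 WTD and 1 WTD + atorvastatin). One WTD mouse, replicate 15, stood apart: it had the highest level of its group in Lrp1, Scarb1, Stard4 and Vldlr and the lowest in Mylip, together with the highest summed hepatocyte markers (99745.9 CPM) and the lowest summed macrophage markers (1171 CPM). WTD + atorvastatin replicate 7 was the lowest of its group in Lrp1, Stard4 and Vldlr and the highest in Mylip. The marker genes of the tissue moved with the groups as well. All 8 hepatocyte markers were lower in WTD than in Chow and 7 of 8 were higher in WTD + atorvastatin than in WTD (edgeR, adjusted p under 0.01), with sums of 102140 to 150218 CPM in Chow, 44457.6 to 99745.9 in WTD and 58789.2 to 121686 in WTD + atorvastatin. All 7 tested macrophage markers were higher in WTD than in Chow and 3 of them were lower with atorvastatin than without, with sums of 225 to 332, 1171 to 2585 and 937 to 1837 CPM, while Itgam had no count in any mouse. Of 8 stellate cell and fibroblast markers, 5 were higher in WTD than in Chow and 3 were lower with atorvastatin, with sums of 344 to 633, 1029 to 2390 and 900 to 2323 CPM. A score of clock genes also differed, with medians of -1.94 in Chow, -0.51 in WTD and 0.39 in WTD + atorvastatin. With this score in the model, each of the 5 members kept its side of the threshold in each of the 3 comparisons.

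The diet comparison set WTD against Chow, where cholate and the prefix of the mouse names differed along with the diet. In it, 4 of the 5 members differed between WTD and Chow. Mylip rose 2.91-fold and Scarb1 rose 1.42-fold, Stard4 fell to 0.396 and Vldlr to 0.583 of the Chow level, and Lrp1 was not called. By the same call (edgeR quasi-likelihood test, Benjamini-Hochberg adjusted p under 0.01), 33.5% of the 15574 tested genes were called in this comparison (17.5% higher and 16% lower). The treatment comparison asked what atorvastatin changed on the same diet, and 1 of the 5 members was called, Stard4, which rose 1.76-fold, where 7.1% of all tested genes were called (4.84% higher and 2.26% lower). No member's groups were free of overlap there, and 0.00642% of all tested genes had such groups. Between WTD + atorvastatin and Chow, 3 of the 5 members were called (Mylip and Scarb1 higher, Stard4 lower), against 25% of all tested genes (14.2% higher and 10.7% lower). The comparisons share mice, so their values are given side by side and are not independent of each other. In bulk liver, fewer cells of a type and less RNA per cell cannot be told apart.

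**Figure D1:**
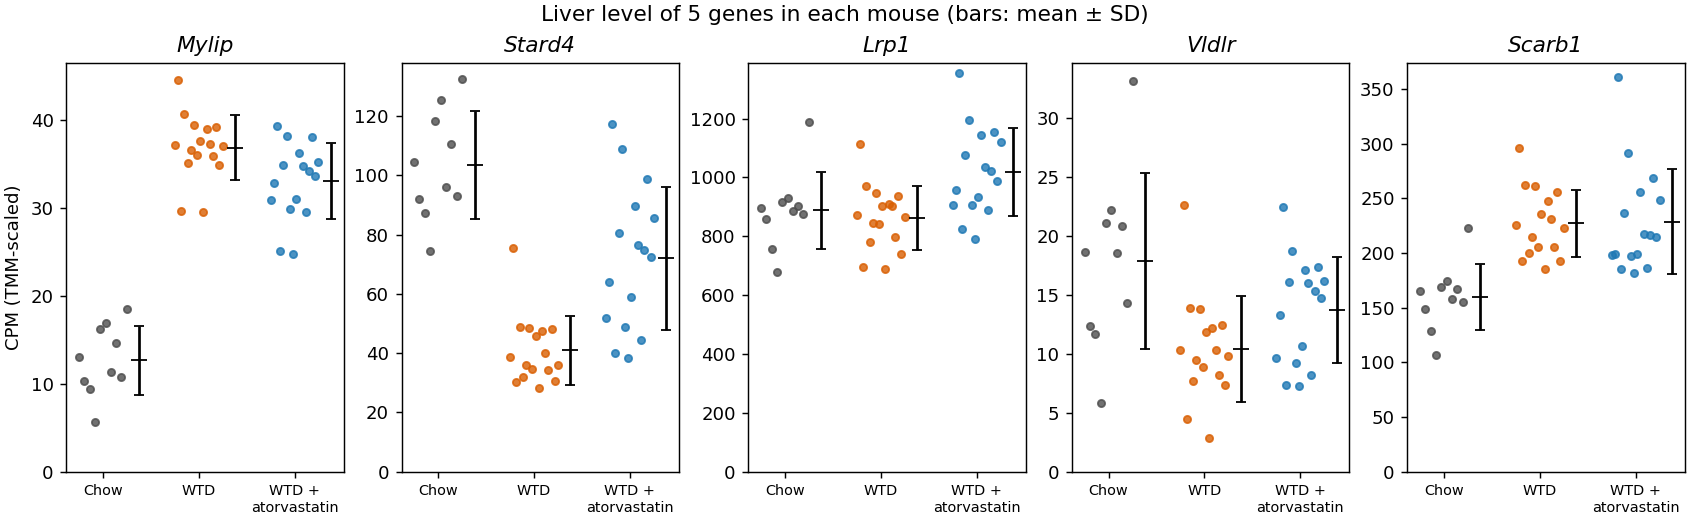
Level of each member in each mouse, in CPM scaled by TMM, with Chow (n = 10), WTD (n = 16) and WTD + atorvastatin (n = 16) along the horizontal axis; points are mice and bars give the mean ± SD. Mylip separates the Chow mice (5.71 to 18.6 CPM) from both WTD groups, while Stard4 runs in the order Chow, WTD + atorvastatin, WTD by median.

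Among the receptors, Lrp1 had the highest level per length and the smallest difference between WTD and Chow. Lrp1 ranged from 680 to 1188 CPM in Chow (median 890), from 688 to 1114 in WTD (median 869) and from 792 to 1355 in WTD + atorvastatin (median 1005). The Chow and WTD mice overlapped over nearly their whole range, and the treated mice lay higher, with 14 of 16 above the WTD median and 5 above every WTD mouse. The difference of WTD from Chow was -0.04 on the log2 scale (SE 0.082, 95% interval -0.21 to 0.12, edgeR adjusted p = 0.72), an interval of 0.868 to 1.09 in folds. Atorvastatin against WTD gave 0.24 (SE 0.072, interval 0.10 to 0.38, edgeR adjusted p = 0.018), which missed the threshold. It passed without WTD replicate 15 (edgeR adjusted p = 0.0041) or without WTD + atorvastatin replicate 7 (edgeR adjusted p = 0.0076). It was weaker with RLE scaling (0.197, edgeR adjusted p = 0.0504) and with the clock score in the model (0.192, edgeR adjusted p = 0.054). WTD + atorvastatin against Chow gave 0.20 (SE 0.082, edgeR adjusted p = 0.055), and 0.07 with the clock score in the model (edgeR adjusted p = 0.59).

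Vldlr was the lowest member per length by median in each group and had the widest relative spread in Chow and WTD, with coefficients of variation of 41.7% in Chow, 43% in WTD and 32.9% in WTD + atorvastatin. Vldlr ranged from 5.82 to 33.1 CPM in Chow (median 18.6), from 2.87 to 22.7 in WTD (median 10.1) and from 7.25 to 22.5 in WTD + atorvastatin (median 15.1). The groups overlapped widely, although 15 of 16 WTD mice lay below the Chow median. Vldlr fell by 0.78 on the log2 scale from Chow to WTD (SE 0.22, interval -1.22 to -0.33, edgeR adjusted p = 0.0032). This call rests on the most extreme Chow mouse: without Chow replicate 2, the highest at 33.1 CPM and the library that missed the most weak genes (59.7%), the difference was -0.64 (edgeR adjusted p = 0.016), and without all 8 such libraries it was -0.66 (edgeR adjusted p = 0.036). Atorvastatin against WTD gave 0.40 (SE 0.197, interval 0.0018 to 0.79, edgeR adjusted p = 0.20), with 11 of 16 treated mice above the WTD median. WTD + atorvastatin against Chow gave -0.38 (interval -0.83 to 0.07, edgeR adjusted p = 0.19), so that the treated level was not distinguished from either of the other groups.

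Scarb1 was higher than in Chow in both WTD groups, with and without the statin. Scarb1 ranged from 106 to 223 CPM in Chow (median 162), from 185 to 296 in WTD (median 224) and from 182 to 361 in WTD + atorvastatin (median 216). All 16 mice of each WTD group lay above the Chow median, and 8 WTD and 6 treated mice lay above every Chow mouse. The rise was 0.51 on the log2 scale in WTD (SE 0.098, interval 0.31 to 0.71, edgeR adjusted p = 2.5e-05) and 0.52 in WTD + atorvastatin (SE 0.099, edgeR adjusted p = 3e-05), both against Chow. Between the 2 WTD groups the difference was 0.01 (SE 0.085, interval -0.16 to 0.18, edgeR adjusted p = 0.97), and its sign changed with the normalization. Pdzk1, the adaptor that holds Scarb1 at the hepatocyte surface, moved the other way from Scarb1: it fell by 0.57 on the log2 scale in WTD against Chow (SE 0.098, edgeR adjusted p = 2.6e-06), and its difference with atorvastatin was 0.26 (edgeR adjusted p = 0.033).

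Mylip showed the clearest separation of the diets. Mylip ranged from 5.71 to 18.6 CPM in Chow (median 12.2), from 29.5 to 44.6 in WTD (median 37.1) and from 24.8 to 39.3 in WTD + atorvastatin (median 33.9). No mouse of either WTD group fell within the Chow range, which makes Mylip the 1 member of 5 whose groups did not overlap, in WTD against Chow and in WTD + atorvastatin against Chow. Such separation was seen for 5.83% and 4.37% of all tested genes in these comparisons. The rise was 1.54 on the log2 scale in WTD (SE 0.117, interval 1.30 to 1.77, edgeR adjusted p = 6.2e-16) and 1.38 in WTD + atorvastatin (SE 0.116, edgeR adjusted p = 4.6e-14). With atorvastatin against WTD the difference was -0.16 (SE 0.096, interval -0.35 to 0.03, edgeR adjusted p = 0.33), with 13 of 16 treated mice below the WTD median. The Mylip reads were few in Chow (113 to 346 counts per mouse) and more in WTD (566 to 1431), and both ends of the Chow range came from libraries that missed over 20% of the weak genes (replicates 5 and 6). Without the 8 such libraries the rise in WTD was 1.497 (edgeR adjusted p = 1.3e-15).

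Stard4 moved opposite to Mylip in WTD against Chow and was the 1 member called with atorvastatin against WTD. Stard4 ranged from 74.5 to 133 CPM in Chow (median 100), from 28.1 to 75.6 in WTD (median 37.3) and from 38.4 to 117 in WTD + atorvastatin (median 73.6). Of the WTD mice, 15 of 16 lay below every Chow mouse, and the exception was replicate 15. All 16 treated mice lay above the WTD median, 7 above every WTD mouse, and 8 below every Chow mouse. Stard4 fell by 1.34 on the log2 scale in WTD against Chow (SE 0.155, interval -1.65 to -1.03, edgeR adjusted p = 1e-09). It rose by 0.81 with atorvastatin against WTD (SE 0.139, interval 0.53 to 1.09, edgeR adjusted p = 7.7e-05), and this was 0.90 without replicate 15 of the WTD group (edgeR adjusted p = 2.2e-06) and 0.74 without the 8 libraries (edgeR adjusted p = 0.0022). Against Chow the treated mice stayed lower by -0.52 (SE 0.156, interval -0.84 to -0.21, edgeR adjusted p = 0.0067). That last call was lost when any 1 of 11 mice was left out (edgeR adjusted p of 0.0018 to 0.018 over all 42 mice left out in turn) and without a filter on low counts (edgeR adjusted p = 0.014). The difference was larger with the clock score in the model, at -0.83 (edgeR adjusted p = 2.7e-05), and was -0.69 without the 8 libraries (edgeR adjusted p = 0.0020). The coefficient of variation of Stard4 was 17.6% in Chow, 28.5% in WTD and 33.7% in WTD + atorvastatin, and differences between these were not tested. The summed hepatocyte markers were ordered as Stard4 over the groups, with medians of 115498, 59368 and 100943 CPM in Chow, WTD and WTD + atorvastatin, and their part in the result was not tested.

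**Figure D2:**
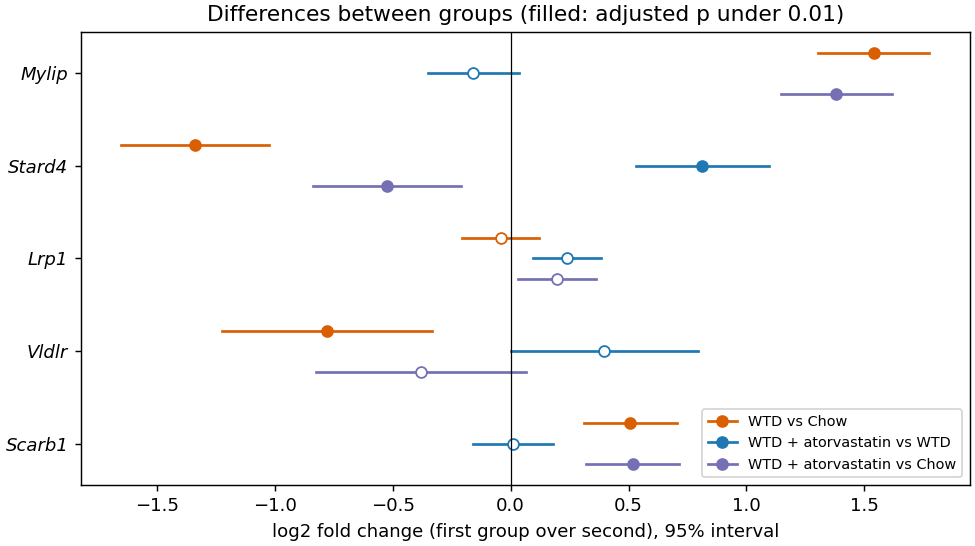
Differences of the 5 members between groups on the log2 scale (horizontal axis), with 95% intervals from edgeR; filled points have an adjusted p under 0.01 and colours mark the 3 comparisons. Stard4 is the member with filled points in all 3 comparisons, at -1.34, 0.81 and -0.52.

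Per length, the order of the members differed between Chow and WTD. In CPM per kb of exon, the medians in Chow were 50.3 for Lrp1, 19.0 for Scarb1, 17.9 for Stard4, 3.77 for Mylip and 1.85 for Vldlr. Scarb1 and Stard4 were not separated there, since Scarb1 was the higher in 4 of 10 mice. In WTD the medians were 49.0 for Lrp1, 26.4 for Scarb1, 11.5 for Mylip, 6.67 for Stard4 and 1.00 for Vldlr, and Scarb1 exceeded Stard4 in 16 of 16 mice. Mylip lay above Stard4 in 0 of 10 Chow, 15 of 16 WTD and 6 of 16 WTD + atorvastatin mice. With atorvastatin the medians were 56.7, 25.4, 13.2, 10.5 and 1.497 for Lrp1, Scarb1, Stard4, Mylip and Vldlr, so that Stard4 and Mylip, neighbours in that order, were not separated. Lrp1 was the highest member per kb in each of the 42 mice.

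**Figure D3:**
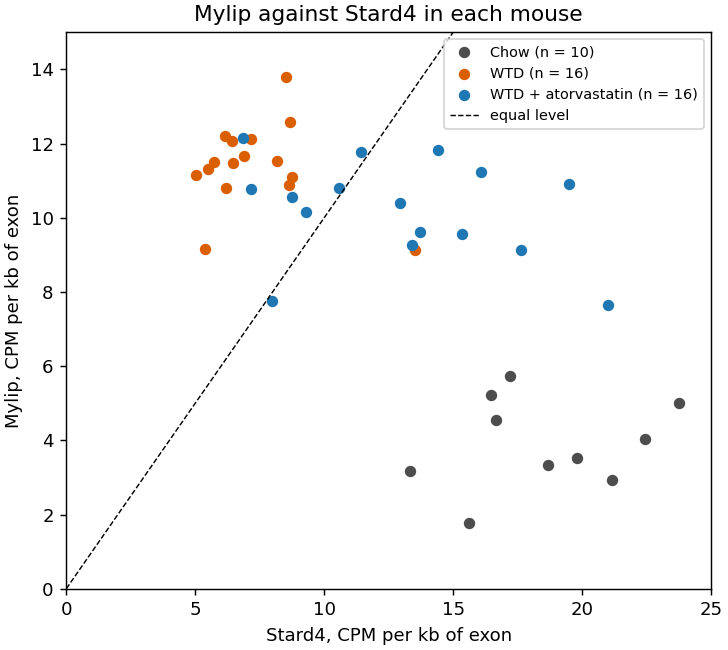
Mylip (vertical axis) against Stard4 (horizontal axis) in each mouse, both in CPM per kb of exon, with the dashed line at equal levels. The 10 Chow mice lie below the line, 15 of 16 WTD mice above it, and the WTD + atorvastatin mice on both sides (6 above).

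The other genes of the pathway put these values in context, with medians of all tested genes at 0.03 (WTD against Chow) and 0.0016 (atorvastatin against WTD) on the log2 scale. The list counts stand beside 17.5% of all tested genes called higher and 16% called lower in WTD against Chow, and 4.84% and 2.26% with atorvastatin against WTD. Of 12 LXR targets, 10 rose and 0 fell in WTD against Chow (median 1.48), the same direction as Mylip. Abcg1, a cholesterol exporter, rose by 3.37 (SE 0.191) and Abcg5, which sends sterols into bile, by 1.74 (SE 0.142). Lpcat3, also on this list, was at 0.05 (SE 0.102). The summed macrophage markers rose too, with medians of 292 CPM in Chow and 2041 CPM in WTD. Their part in the values of Mylip and of the LXR targets was not tested. With atorvastatin, 1 of 12 fell, Lpl, and 0 rose (median -0.07, with 8 at an unadjusted p under 0.05), and the number called was 2 with DESeq2 and 8 with limma-voom. Of 21 SREBP2 targets, 21 fell in WTD against Chow (median -2.14) and 17 rose with atorvastatin (median 0.75), the same directions as Stard4. Sqle, the squalene epoxidase, fell by 3.40 (SE 0.257) and rose with atorvastatin by 1.61 (SE 0.23). Cyp51, a lanosterol demethylase, fell by 2.93 (SE 0.137) and rose with atorvastatin by 0.72 (SE 0.121). The SREBP2 targets stayed below Chow with atorvastatin, with 18 of 21 called lower (median -1.23).

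Genes close to each member in function were less uniform. Of 9 tested relatives of Lrp1 and Vldlr in the LRP family, 4 rose in WTD against Chow and 0 fell (median 0.42), and Lrp1b and Lrp2 were too weak to test. Sorl1, a sorting receptor, rose by 2.12 (SE 0.237), Lrp12 by 1.49 (SE 0.335), Lrp10 by 0.42 (SE 0.071) and Lrp5 by 0.38 (SE 0.087). With atorvastatin 0 of the 9 were called by edgeR or DESeq2 and 1 by limma-voom, and 2 had an unadjusted p under 0.05. Among 14 tested adaptors and trafficking genes, 6 rose and 1 fell (Pdzk1) in WTD, among them Cltc, the clathrin heavy chain (0.65, SE 0.075), and Vps35 of the retromer (0.59, SE 0.081), where 33.5% of all tested genes were called in either direction. With atorvastatin 0 of 14 were called by edgeR, 2 by DESeq2 and 5 by limma-voom, and 8 had an unadjusted p under 0.05. Of 8 partners of Mylip in receptor turnover and proteases that cut receptors from the surface, Adam10 (0.77, SE 0.096) and Adam17 (0.89, SE 0.125) rose in WTD. These 2 of 8 are near the share of all tested genes called, 33.5% in either direction and 17.5% higher. Furin, which cleaves the Lrp1 precursor, rose with atorvastatin (0.38, SE 0.08, edgeR adjusted p = 0.00069) but was at -0.03 in WTD against Chow.

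Of 11 tested scavenger receptors, 6 rose and 1 fell in WTD (median 0.70) and 3 fell with atorvastatin (median -0.31). Those 3 were Cd68, a macrophage protein (2.56 in WTD, -0.56 with atorvastatin), Cxcl16 (1.91 and -0.61) and Colec12 (0.70 and -0.31). Cd68 is also on the list of macrophage markers, whose sums moved with the groups in the same way. Heparan sulfate chains take up remnants beside Lrp1, and of 9 genes for them 4 rose and 1 fell in WTD. Sdc1, the core protein of the hepatic remnant receptor, fell by 0.52 (SE 0.083). The sulfotransferases Ndst1 (0.58, SE 0.126) and Hs6st1 (0.45, SE 0.08) rose with atorvastatin and were at -0.06 and -0.04 in WTD against Chow. Of 12 ligands and lipases, 5 rose and 4 fell in WTD, led by Lpl, lipoprotein lipase (3.70, SE 0.279), and Pltp, the phospholipid transfer protein (1.47, SE 0.144). With atorvastatin Lpl fell by 1.02 (SE 0.207), and the Lrp1 ligand Pzp (0.40, SE 0.073) and the Vldlr ligand Reln (0.47, SE 0.101) rose.

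Of 20 START domain and sterol transport genes beside Stard4, 3 rose and 7 fell in WTD, and 7 rose and 1 fell with atorvastatin (median 0.23). Gramd1c fell by 1.31 (SE 0.093) and rose by 0.57 (SE 0.083), and Stard10 fell by 0.95 (SE 0.069) and rose by 0.22 (SE 0.061). Gramd1b, a carrier of cholesterol from the plasma membrane, rose by 2.53 (SE 0.217) in WTD, opposite to Stard4 and Gramd1c, and Npc2, which carries cholesterol out of lysosomes, rose by 0.84 (SE 0.079) and fell with atorvastatin by 0.35 (SE 0.067). The number of these genes called with atorvastatin was 8 in all, and 3 without the 8 libraries or with the clock score in the model, and as few as 4 with 1 mouse left out. Of 16 transcriptional regulators of the members, 4 rose and 9 fell in WTD, and 3 rose with atorvastatin. These were Srebf2, the gene of SREBP2 (-0.88 in WTD, 0.33 with atorvastatin), Scap, its escort (-1.05 and 0.67), and Hnf4a (-0.31 and 0.33). Hnf4a is a hepatocyte factor that is also one of the hepatocyte markers. The lists share genes. Srebf2 is also counted among the SREBP2 targets, and the regulators Srebf1 and Nr1h3 among the LXR targets. Lpl and Pltp are counted both among the LXR targets and among the ligands and lipases.

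**Figure D4:**
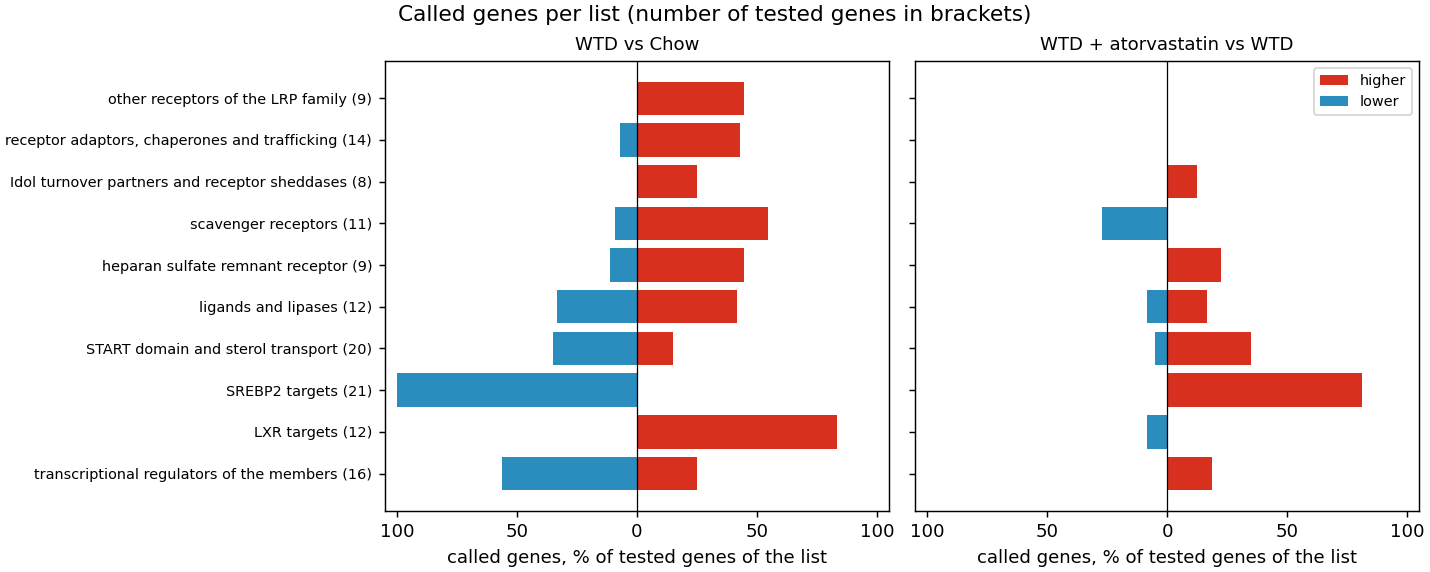
Share of the tested genes of each list (numbers in brackets) called higher (right, red) or lower (left, blue) at an adjusted p under 0.01, for WTD against Chow and for WTD + atorvastatin against WTD. The SREBP2 targets reach 21 of 21 lower and then 17 of 21 higher, and the LXR targets 10 of 12 higher and then 0 higher.

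The members were then compared across mice within each WTD group, with 60 relations tested by permutation and adjusted together. A list score is the mean over the list of log2 CPM scaled to unit variance in the group. Of these, 4 passed an adjusted p under 0.05 for Pearson's r, all 4 of them in WTD + atorvastatin and all 4 with Stard4, while 15 had an unadjusted p under 0.05. Stard4 followed the SREBP2 target score with r = 0.85 (permutation adjusted p = 0.0042) and rho = 0.82 (permutation adjusted p = 0.0105, n = 16), and r was 0.88 without the 2 mice farthest from the median score. It ran against the macrophage marker score with r = -0.73 (permutation adjusted p = 0.0256) and rho = -0.80 (permutation adjusted p = 0.0105), and r was -0.68 without the 2 farthest mice. The relation of Stard4 with the stellate cell and fibroblast score had r = -0.68 (permutation adjusted p = 0.049) and rho = -0.71 (permutation adjusted p = 0.039), with r = -0.60 without the 2 farthest mice. Stard4 and Vldlr were positively related, with r = 0.74 (permutation adjusted p = 0.0256) and rho = 0.72 (permutation adjusted p = 0.039), and r = 0.58 without the 2 farthest mice. Vldlr itself had r = 0.67 with the SREBP2 target score (permutation adjusted p = 0.051, rho = 0.71, permutation adjusted p = 0.039). Without the 1 treated library that missed over 20% of the weak genes, the 4 values of r were 0.84, -0.72, -0.68 and 0.75. The hepatocyte markers, a list added after these relations were seen and adjusted over 10 relations of its own, moved with Stard4 as well. Stard4 and the hepatocyte marker score had r = 0.82 (permutation adjusted p = 0.0011) and rho = 0.79 (permutation adjusted p = 0.0049), and r was 0.80 without the 2 farthest mice, beside r = 0.85 with the SREBP2 target score; the difference between these was not tested. Vldlr (r = 0.71, permutation adjusted p = 0.0085, rho = 0.68, permutation adjusted p = 0.024, and 0.81 without the 2 farthest mice) and Scarb1 (r = 0.58, permutation adjusted p = 0.042, rho = 0.61, permutation adjusted p = 0.0505, and 0.45 without them) were also related to this score. The part of the hepatocyte markers in the relation of Stard4 with the SREBP2 targets was not tested.

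In WTD without atorvastatin none of the 30 relations of the first set passed after adjustment. Stard4 and the SREBP2 target score had r = 0.61 (permutation adjusted p = 0.084) and rho = 0.56, and r was 0.41 without the 2 farthest mice. Stard4 and the macrophage score had r = -0.66 (permutation adjusted p = 0.0675), which became -0.27 without the 2 farthest mice and so rests on them. The value with the stellate cell and fibroblast score was r = -0.55 (permutation adjusted p = 0.12, rho = -0.36), and -0.09 without the 2 farthest mice. Stard4 and the hepatocyte marker score had r = 0.74 (permutation adjusted p = 0.0085 over the 10 relations) but rho = 0.44 (permutation adjusted p = 0.23), and r was 0.37 without the 2 farthest mice. Leaving out the 4 WTD libraries that missed over 20% of the weak genes gave larger values in the 12 other mice, with r = 0.76 for Stard4 and the SREBP2 targets, -0.73 for the macrophages, -0.85 for the stellate cells and fibroblasts, 0.87 for the hepatocytes, and -0.80 for Mylip and Vldlr. WTD replicate 15, the mouse that stood apart, missed 18.95% of the weak genes and stayed among these 12 mice. Its part in these values was not tested. Over all 16 WTD mice, Stard4 and Vldlr had r = 0.17 (permutation adjusted p = 0.65). Mylip and Vldlr had r = -0.65 (permutation adjusted p = 0.078, rho = -0.47) in WTD and r = -0.49 (permutation adjusted p = 0.18) in WTD + atorvastatin. Mylip and the LXR target score had r = -0.26 (permutation adjusted p = 0.47) in WTD and r = 0.47 (permutation adjusted p = 0.19) in WTD + atorvastatin. Whether a relation differs between the groups was not tested.

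**Figure D5:**
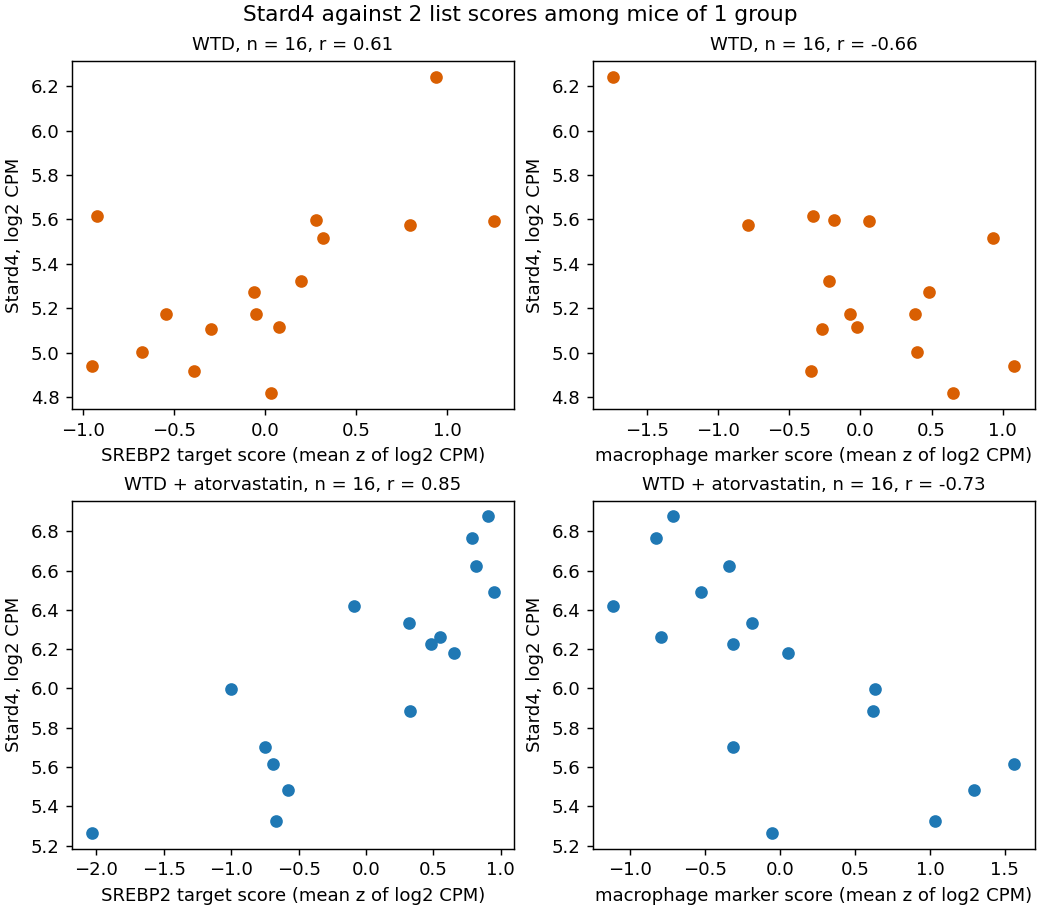
Stard4 (vertical axes, log2 CPM) against the SREBP2 target score (left) and the macrophage marker score (right), both as mean z of log2 CPM, in WTD (upper row) and WTD + atorvastatin (lower row); each point is a mouse, 16 per panel. The treated mice follow the SREBP2 score (r = 0.85), while the left-most point of the upper right panel is the WTD mouse that stood apart.

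The genes most like each member across the 42 mice, by Pearson's r of log2 CPM after each group's mean was subtracted, are given as a description over 10787 genes of at least 5 CPM. Stard4 had the closest partners, Bbox1, of carnitine synthesis (r = 0.86), Rgn, regucalcin (0.86), and Ugt2a3, a glucuronosyltransferase (0.85), at 0.90, 0.93 and 0.88 without the 8 libraries. For Lrp1 they were Ndst1 (0.78), Pcdh1 (0.77) and Fn1, fibronectin (0.76), and for Scarb1 Ddi2 (0.69), Elovl2, a fatty acid elongase (0.68), and Slc17a2 (0.68). For Vldlr they were Polg2 (0.77), Dhrs7 (0.66) and Plekhg3 (0.65). Those of Mylip depended on the libraries that missed weak genes: Lrp12 (0.77), Cd300c2 (0.73) and Cd33 (0.73) had r = 0.44, 0.24 and 0.48 in the 34 other mice. With all libraries, r in Chow, WTD and WTD + atorvastatin was 0.88, 0.07 and 0.61 for Mylip with Lrp12. For Cd300c2 it was 0.86, 0.19 and 0.16, and for Cd33 0.70, 0.80 and 0.79. In Chow alone, r was 0.48 for Stard4 with Bbox1 and 0.30 for Scarb1 with Slc17a2. The points share library depth and the makeup of the tissue piece.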

How the data were processed

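Liver RNA of 42 mice was measured by poly(A), strand-specific, paired-end RNA sequencing (150 bp). The deposited unit is the count: per the labels and methods, the authors trimmed reads with Trimmomatic, aligned them to GRCm38 (GENCODE vM19) with STAR 2.5 and counted read pairs per gene with HTSeq 0.6.1p1, without normalization. The 42 single tables were identical to the table of all mice, and no column belonged to any other sample. Symbols, positions and exon lengths came from GENCODE vM21 (54409 of 54446 identifiers matched) and promoters from RefSeq, which matched 3 of the 5 members.

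In edgeR 4.0.16 (R 4.3.3), filterByExpr removed low genes (minimum count 10 and minimum total 15), TMM set the library sizes, and a quasi-likelihood model was fitted (robust, all 42 mice, 3 groups, no covariate since no batch is given), with Benjamini-Hochberg adjustment over 15574 genes and calls at an adjusted p under 0.01. Levels are CPM on TMM-scaled library sizes, and log2 CPM used a prior count of 2. Relations used 100000 permutations (two-sided); those with the hepatocyte marker score were added after seeing the data. Mice of a group are separate animals. Alternatives were DESeq2 1.42.0, limma-voom (limma 3.58.1) with quality weights per sample, scaling by RLE or by the upper quartile, no low-count filter, a minimum of 10 counts in each mouse, a fit of the compared groups alone, calls at an adjusted p under 0.05, a clock gene score as covariate, leaving out the 8 libraries that missed over 20% of weak genes, and leaving out each mouse. The edgeR test of WTD against Chow was tried on simulated counts. Named genes were the 5 members, the 3 genes with the smallest p per pathway list in WTD against Chow and in WTD + atorvastatin against WTD, of which examples are given, and the 3 genes most like each member. The members and lists were chosen with earlier results of these data known. Some receptors and regulators of this pathway are not reported here. Depth, 15661381 to 36224054 counts per mouse, limits the weak members Vldlr and Mylip most. Protein levels and plasma lipids were not analysed here.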

Additional observations from a re-analysis of the deposited data

Results flagged for a closer look

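Lrp1 in Chow had 1 mouse far from the others: replicate 5 was at 1187.51 CPM, and the gap to the next Chow mouse took 0.509 of the range of the group, above the 95% critical value of Dixon's test for 10 mice. About 1 in 20 groups is marked this way by chance. The rule was applied only to the group of 10 mice, Chow, so mice of both WTD groups were not screened. The same library had no count for 46.35% of the weakly expressed genes and the lowest Mylip level of all mice, and the part of this in the Lrp1 level was not tested. Without this mouse, the difference of Lrp1 between WTD and Chow was 0.01 on the log2 scale (edgeR adjusted p = 0.91).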

How the results depend on the processing

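The calls of Mylip, Scarb1 and Stard4 in WTD against Chow and of Stard4 with atorvastatin against WTD kept their direction and their side of the threshold under all 10 alternatives and with each of the 42 mice left out. With atorvastatin against WTD, the number of members called was 2 instead of 1 at an adjusted p under 0.05 and with limma-voom. It was 1 to 2 with a mouse left out. The added member was Lrp1, whose difference was 0.29 by limma-voom (adjusted p = 6.9e-05) and 0.192 with the clock score (edgeR adjusted p = 0.054). All genes called in that comparison were 1106, against 2021 at an adjusted p under 0.05, 3145 with limma-voom and 775 without the 8 libraries. Differences near 0 changed sign: Lrp1 in WTD against Chow was 0.0090 with a minimum of 10 counts in each mouse (-0.079 to 0.014 with a mouse left out), and Scarb1 with atorvastatin against WTD was -0.0347 with DESeq2, -0.0346 with RLE, -0.0175 with upper quartile, -0.0307 with a minimum of 10 counts in each mouse, -0.000532 with only the 2 groups compared and -0.018 with the clock score (-0.047 to 0.039 with a mouse left out); the cause was not tested. Lrp1 in WTD + atorvastatin against Chow passed with limma-voom (0.26, adjusted p = 0.0030) and was 0.07 with the clock score (adjusted p = 0.59). The other losses stand beside their results. No paired analysis was possible because the mouse numbers do not pair animals between groups.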
